A study of Mus musculus with 48 samples.

Results

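The D-near stretch of the Ighv1 (J558) block in the heavy chain locus (Igh) of the mouse is the 700 kb between chr12:115800001-116500000 in mm9, which begins 1034 kb from the D cluster and makes up 28.9% of the length of the VH region. Its members were chosen by position: every junction of a JH-bait library that fell between these coordinates, outside 2 short stretches (115850443 to 115850481 and 116026574 to 116026643) that the rule leaves out and that held 16045 junctions. This gave 75995 of the 605816 VH junctions, grouped by position and strand into 246 of 857 VH segments. Of these segments 99 had at least 10 junctions over the 25 libraries. The annotation places 32 V genes in the 700 kb, 1 of them in a stretch that was left out, and the remaining 31 comprise 28 genes of the Ighv1 (J558) family, Ighv15-2 and the Ighv8 genes Ighv8-5 and Ighv8-6. Ighv1-13, Ighv1-30 and Ighv1-33 are annotated as pseudogenes.

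Developing B cells build the variable exon of the heavy chain by joining a D segment to a JH segment and then a VH gene to that DJH unit. The RAG nuclease cuts at a recombination signal, made of a heptamer next to the coding end, a spacer and a nonamer. It is held at a recombination centre over the JH segments, and it can scan chromatin that cohesin reels past it, using signals that face it. The J558 family is the largest family of mouse VH genes and lies far from D, so its use in pro-B cells is known to depend on contraction of the locus. Pro-B lines transformed by v-Abl are known to use mostly the VH genes closest to D.

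Junctions were mapped by LAM-HTGTS, in which a primer at a bait, here JH1-4, is extended by linear amplification across each joint into the DNA joined to it. The series asks how RAG scanning depends on orientation and how cohesin brings distant VH genes to the recombination centre. Bone marrow (BM) pro-B cells were C57BL/6 and RAG1 deficient (WT BM, 3 libraries), or carried an Igh inversion as well (INV BM, 4 libraries). They were cultured with IL-7 and SCF and purified on B220 beads. The labels name no step that restores RAG1 in the marrow cells, and they do not give the ends of the inversion. The v-Abl lines were RAG1 deficient, expressed OsTIR1 (a plant ubiquitin ligase subunit that acts with auxin) and Emu-Bcl2, were infected with a RAG1/2 retrovirus, and were arrested by 4 days in 3 uM of the Abl inhibitor STI-571. The labels list this inhibitor for the marrow cells too, and whether those received it was not settled here.

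The lines formed 6 groups of 3 libraries. The parental line and the Wapl-degron line were each left untreated, and the Wapl-degron line was also treated with 150 uM IAA (an auxin) and Dox for the last 3 days (IAA/Dox). Wapl takes cohesin off chromatin, and its auxin degron marks it for destruction. A Wapl-degron line with a single Igh allele was left untreated or given IAA/Dox, and a single-Igh line carrying the inversion was given IAA/Dox (single-Igh INV). The genotype label of this last group omits the inversion, which stands only in the title. No untreated inverted line and no IAA/Dox-treated parental line was analysed here, so IAA and Dox alone cannot be told apart from loss of Wapl. Whether a line is 1 clone, and whether libraries came from separate cultures or animals, is not stated, so p-values measure the spread between these samples. Junction lists hold no marker genes, so the labelled cell type was not checked.

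Libraries held 61194 to 1016401 junctions. The region received 36503, 14614 and 11487 of them in WT BM, 2138, 782, 569 and 881 in INV BM, 83, 167 and 122 in the parental line, 66, 218 and 185 in the untreated Wapl-degron line and 801, 1614 and 1268 with IAA/Dox. The single-Igh line gave 99, 266 and 164 untreated and 930, 1952 and 1003 with IAA/Dox. Single-Igh INV gave 0, 34 and 49, and its replicate 1 had only 144 VH junctions, so 0 there allows a share of up to 2.08% (3 counts). Values for single libraries of the untreated and inverted lines therefore rest on few joints, and intervals and floors cover counting error only. In the parental line, replicate 1 held only 19 distinct junctions among its 83.

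Libraries of a treated group shared identical junctions, with the same prey and bait positions and the same strand. Single-Igh IAA/Dox replicates 1 and 3 shared 286 of their 604 and 643 distinct region junctions and did not differ beyond the sampling noise over VH segments (chi-square p = 0.371). Wapl-degron IAA/Dox replicates 1 and 2 shared 144 of 729 and 985 and did not differ by the same test either. Each such pair was counted as 1 sample, which left 23 samples and n = 2 for both IAA/Dox groups. Wapl-degron IAA/Dox replicate 3 shared 56 and 74 junctions with the others, and single-Igh INV replicates 2 and 3 shared 9 of 28 and 31, but their counts differed at 0.05 and they were kept apart. Other pairs of a group shared at most 15 junctions, and pairs from different groups at most 4.

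The sequences at the sites that the results turn on are shown here in mm9, 5′ to 3′, beginning at the coding end. Capitals mark the best match to the consensus heptamer CACAGTG and, after a spacer of 22 or 23 bases, the place of the nonamer ACAAAAACC. The first set holds the most used genes of marrow and of the treated lines, each read on the minus strand, which is the coding strand of these genes.

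Ighv1-18 (chr12:115920805-115920850): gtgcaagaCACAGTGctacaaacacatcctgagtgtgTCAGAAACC
Ighv1-19 (chr12:115946821-115946866): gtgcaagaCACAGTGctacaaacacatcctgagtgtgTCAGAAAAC
Ighv1-9 (chr12:115821742-115821787): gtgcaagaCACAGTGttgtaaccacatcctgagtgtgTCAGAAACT
Ighv15-2 (chr12:115802750-115802796): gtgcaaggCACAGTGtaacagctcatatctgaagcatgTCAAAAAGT
Ighv1-47 (chr12:116229280-116229326): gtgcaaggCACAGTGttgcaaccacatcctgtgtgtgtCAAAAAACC
Ighv1-54 (chr12:116431848-116431893): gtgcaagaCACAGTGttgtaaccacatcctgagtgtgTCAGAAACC
Ighv1-52 (chr12:116383660-116383705): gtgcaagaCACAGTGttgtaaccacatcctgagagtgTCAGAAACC
Ighv1-12 (chr12:115854023-115854068): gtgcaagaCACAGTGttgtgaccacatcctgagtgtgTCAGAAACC

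Several of the signals were nearly the same. Ighv1-9 and Ighv1-54, at 21.8 and 632 kb from the D-side edge, differed by 1 of 46 letters, as did Ighv1-54 and Ighv1-12, Ighv1-54 and Ighv1-52, and Ighv1-18 and Ighv1-19. Those last 2 differed from Ighv1-9, Ighv1-54, Ighv1-52 and Ighv1-12 by 4 to 6 letters. Ighv1-50 and Ighv1-53 had the same 46 letters. Ighv15-2 had a spacer of 23 bases and 6 of the genes one of 22. At Ighv1-47 spacers of 22 and 23 bases matched the nonamer equally well, with 2 mismatches each, and the longer one is marked. The main Ighv1-18 position lay just outside the annotated end of the gene, in a segment that ended within 20 bp of it.

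The second set holds sites that joined on the minus strand in inverted cells, or that lacked an annotated gene, with the strand each was read on.

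Ighv1-47, minus-strand joins (chr12:116229316-116229362, read on plus): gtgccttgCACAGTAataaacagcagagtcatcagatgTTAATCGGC
Ighv1-42, minus-strand joins (chr12:116175321-116175367, read on plus): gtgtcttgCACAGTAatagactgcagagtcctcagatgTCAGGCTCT
site116045359, minus-strand joins (chr12:116045355-116045400, read on plus): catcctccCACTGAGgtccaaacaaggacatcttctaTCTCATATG
site116150542, minus-strand joins (chr12:116150537-116150582, read on plus): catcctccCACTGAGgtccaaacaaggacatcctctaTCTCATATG
site116496342, plus-strand joins (chr12:116496304-116496350, read on minus): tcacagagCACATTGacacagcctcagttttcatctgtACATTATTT

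The nearest heptamers of site116045359 and site116150542 had 2 mismatches each, and the 46 letters of both sites differed by 1 letter. Over 60 bases around the joint (10 before it, 50 after), the heptamer was allowed 21 starts, up to 10 bases to either side of the joint. Among these starts an exact CACAGTG stood at 24 of 33 plus-strand gene sites. Of all such windows on both strands of the region, 0.266% had one. With a heptamer of up to 1 mismatch and a nonamer of up to 3 mismatches, 26 of 30 gene sites with at least 10 junctions matched, against 0.110% of all windows. Of plus-strand sites outside annotated genes with at least 10 junctions, 16 of 37 had an exact heptamer. Of minus-strand sites outside genes 11 of 89 had one, and 1 also had the nonamer. Minus-strand sites at annotated genes had no exact CACAGTG (0 of 22). At 14 of the 22, with 306 of their 372 junctions, CACAGTA was the best match at those starts. Outside genes it was so at 6 of 89 minus-strand sites, with 203 of 853 junctions. Of all such windows of the region 0.1875% held it at any of the 21 starts. At genes only 19 of the 372 junctions lay exactly at the coding end of a CACAGTA, and 155 lay at the signal end of a plus-strand site. As background, that heptamer lies within the coding end of many VH genes, facing away from the gene's own signal, and is known as the cryptic signal used in VH gene replacement. A match is a description of letters and not a test of cutting.

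In wild-type marrow the region took a smaller part of VH junctions than of VH length (28.9%). Its share lay below that of VH nearer to D (55.5%) and below the 21.5% of the D-distal rest of the block, although with the left-out stretches kept the 700 kb took 22.9% (23.8%, 21.9% and 23.1% in the 3 libraries). Without those stretches the region took 19.98%, 17.5% and 18.7% of the VH junctions in the 3 WT BM libraries (18.7% ± 1.25, SD), while in INV BM it took 2.32%, 2.74%, 2.35% and 1.98% (2.35% ± 0.310, n = 4). The lowest WT library lay far above the highest INV library. Of D plus VH junctions, the region's share was 9.34% ± 0.458 in WT BM (8.81% to 9.64%) and 0.236% ± 0.0539 in INV BM (0.178% to 0.304%). The difference was -16.4 percentage points of VH and -9.10 of D plus VH junctions. Each had p = 0.0571 in a two-sided exact permutation test, the smallest that 4 against 3 libraries allow, and an adjusted p of 0.245 over the 60 share tests, none of which passed the threshold of 0.05. Within the 2 sequencing runs that held both groups the VH share differed by -17.7 and -15.7 points. A share cannot tell fewer joints in the region from more joints elsewhere. Ighv5-2, close to D, alone held 78564 of 92022, 23706 of 28532, 20218 of 24237 and 37237 of 44444 VH junctions in INV BM. In WT BM it held 10686 of 182742, 5931 of 83648 and 5773 of 61394. Most of the gap in the VH share goes with that gene. With it left out of the denominator the gap is much smaller, though every INV BM library stays below every WT BM library.

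In the untreated v-Abl lines the region took few VH junctions, and with IAA/Dox it took more than 20% of them. The parental line gave 2.68% ± 0.390 of VH junctions, the untreated Wapl-degron line 2.91% ± 0.575 and the untreated single-Igh line 2.75% ± 0.348 (n = 3 each), and these groups overlapped. The untreated Wapl-degron share was 0.225 points above the parental one (p = 0.6, adjusted p = 0.735, exact permutation). With 1 library left out this difference ranged from -0.0570 to 0.518. Same-numbered libraries gave 3.47% against 2.99%, 2.93% against 2.81% and 2.32% against 2.25%. With the replicate block, an alternative chosen after seeing the data, p was 0.25 (exact permutation), the smallest that 3 pairs allow. With IAA/Dox the Wapl-degron libraries gave 20.2%, 21.8% and 22.4% (21.7% ± 0.958 over 2 samples) and the single-Igh libraries 20.2%, 21.3% and 20.4% (20.8% ± 0.699 over 2 samples). No treated library overlapped an untreated one. The single-Igh INV libraries with IAA/Dox gave 0%, 2.96% and 2.91%, of which the 2 libraries with region junctions lay in the range of the untreated lines. In these 2 libraries Ighv5-2 held 906 of 1149 and 1361 of 1685 VH junctions. In the untreated single-Igh line it held 1763 of 4109, 3769 of 8566 and 2809 of 5981, and the likeness depends on that gene in the denominator. With the gene left out, both single-Igh INV libraries lie above every untreated single-Igh library.

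The IAA/Dox effect over both degron lines was 18.4 points of VH junctions (p = 0.02, adjusted p = 0.15, exact permutation within lines, with 2 treated samples a line). The inversion effect over marrow and the single-Igh line was -17.6 points (p = 0.00571, adjusted p = 0.143, exact permutation). That test counts single-Igh INV replicates 2 and 3, which share junctions, as separate samples and replicate 1 as 0%. With every library counted separately the adjusted p of the IAA/Dox and inversion effects was 0.0490 each. The IAA/Dox effects of the 2 lines differed by 0.761 points (p = 0.517, adjusted p = 0.689, exact permutation). Compared with WT BM, the treated Wapl-degron line had a VH share 2.99 points higher (p = 0.2, adjusted p = 0.387, exact permutation, the smallest p that 2 against 3 samples allow).

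As a share of D plus VH junctions the treated lines stayed below marrow. The treated Wapl-degron libraries gave 0.779%, 0.851% and 1.21%, against 0.0289%, 0.0257% and 0.0234% untreated, and the treated single-Igh libraries gave 1.06%, 1.03% and 1.00%, against 0.0374%, 0.0381% and 0.0305%. The single-Igh INV libraries gave 0%, 0.0163% and 0.0156%. The treated values were thus far above the untreated ones and below the lowest WT BM value of 8.81%, with no overlap in either direction. The IAA/Dox effect over both lines was 0.992 points (p = 0.02, adjusted p = 0.15, exact permutation).

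**Figure D1:**
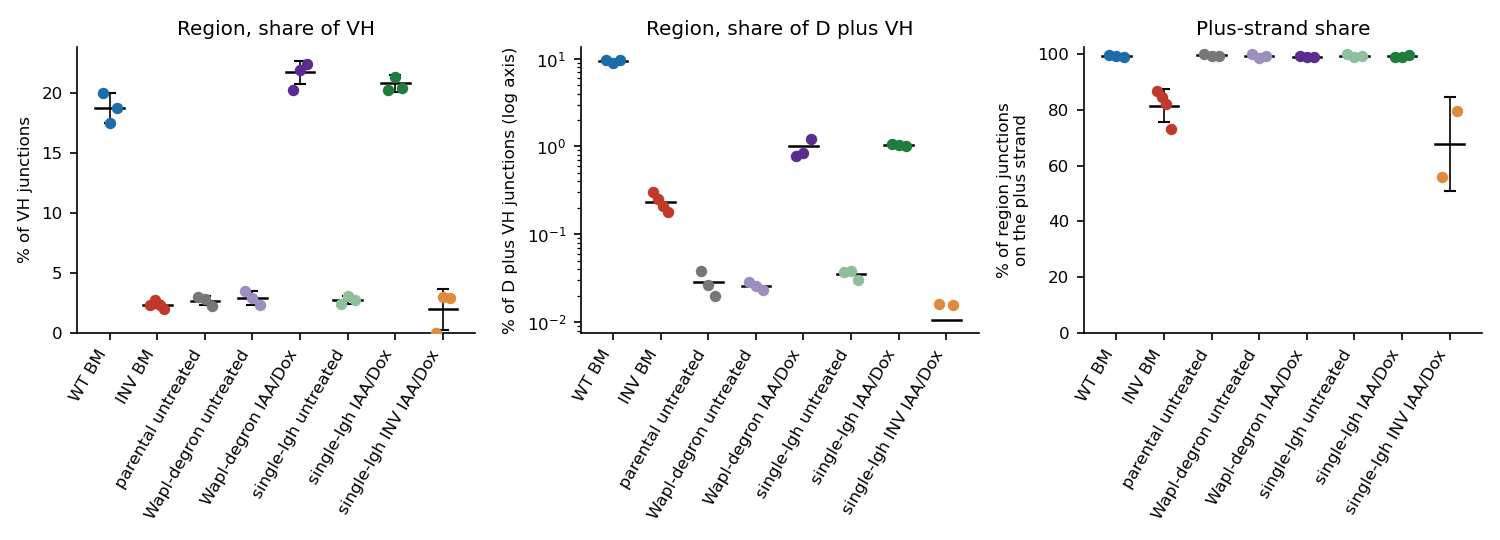
Region junctions as percent of VH junctions (left), percent of D plus VH junctions on a log axis (middle) and percent on the plus strand (right); each point is a library, lines are means over samples and bars are SD on the left and right. WT BM (17.5% to 19.98% of VH) and the treated degron lines (20.2% to 22.4%) stand together on the left, whereas on the log axis the treated lines (0.779% to 1.21%) lie below WT BM (8.81% to 9.64%); the single-Igh INV library without a region junction has no point on the log axis and none on the right.

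Group means moved by a larger fold in the region than in VH nearer to D when Ighv5-2 was counted there. This held for the inversion and for IAA/Dox, and the difference in fold was not tested. In marrow the order depends on that gene: without it, VH nearer to D was lower in INV BM by a larger fold than the region. In INV BM Ighv5-2 alone held 78564 of 82310, 23706 of 25120, 20218 of 21430 and 37237 of 39291 junctions nearer to D. In WT BM it held 10686 of 95380, 5931 of 48382 and 5773 of 34757. The INV BM value nearer to D is thus mostly that 1 gene, and folds without it are not given. From WT BM to INV BM the mean share of D plus VH junctions was 39.6-fold lower in the region, 12.3-fold lower in the D-distal rest of the Ighv1 block and 3.12-fold lower in VH nearer to D. The region's part of the joints in the whole Ighv1 block and beyond (region plus distal) was 45.4%, 46.3% and 48.0% in WT BM and 22.5%, 23.5%, 20.97% and 17.7% in INV BM, a difference of -25.4 points without overlap (p = 0.0571, adjusted p = 0.245, exact permutation). In the treated Wapl-degron line the share was 39.0-fold higher than untreated in the region, 110-fold in the distal block and 1.74-fold nearer to D. In the single-Igh line these were 29.2-fold, 75.1-fold and 1.37-fold. The region's part of region plus distal joints was 60.4% ± 6.60 in untreated and 34.1% ± 1.55 in treated Wapl-degron cells, and 57.9% ± 8.08 and 33.8% ± 2.24 in single-Igh cells. Over both lines the IAA/Dox effect was -25.2 points (p = 0.02, adjusted p = 0.15, exact permutation). Single-Igh INV was 97.0-fold lower than single-Igh IAA/Dox in the region, 75.8-fold lower in the distal block and 4.15-fold lower nearer to D. There Ighv5-2 held 120 of 135, 906 of 1036 and 1361 of 1535 junctions of the single-Igh INV libraries.

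**Figure D2:**
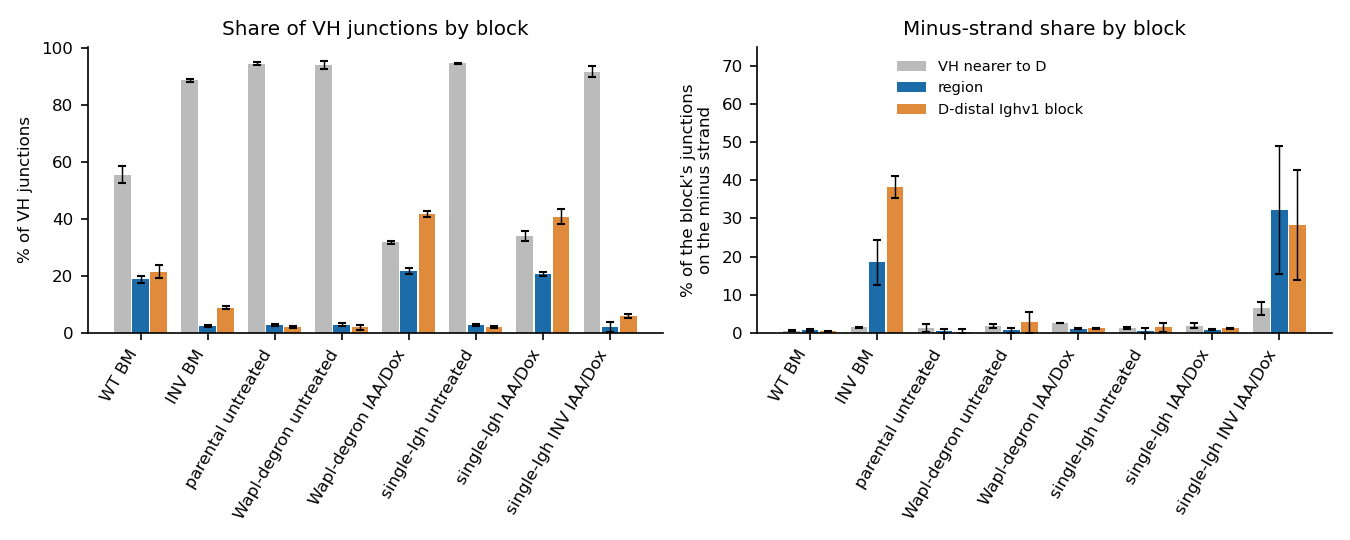
Left, percent of VH junctions in VH nearer to D, in the region and in the D-distal Ighv1 block; right, percent of each block's junctions on the minus strand; bars are means and error bars SD over samples. The region takes 18.7% of VH junctions in WT BM and 21.7% in the treated Wapl-degron line but 2.35% in INV BM, and the minus-strand share of the region reaches 18.5% in INV BM and 32.3% in single-Igh INV. Ighv5-2 is counted in VH here and holds most VH junctions of the inverted groups.

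Within the region, marrow and the lines differed in the weight of the 2 ends. Its far stretch, beyond 350 kb from the D-side edge, took 42.5%, 41.8% and 39.4% of region junctions in WT BM and 66.5%, 69.95% and 67.5% in the treated Wapl-degron line. The difference was 26.7 points, with no overlap (p = 0.2, adjusted p = 0.387, exact permutation). The first 100 kb and the next 100 kb held 21.3% ± 0.780 and 25.3% ± 1.60 of region junctions on the plus strand in WT BM, whereas the last 100 kb held 10.9% ± 1.43. In the treated Wapl-degron and single-Igh lines the last 100 kb held 30.8% ± 1.24 and 28.4% ± 1.22. Their first 100 kb still held 15.4% ± 1.04 and 17.7% ± 0.778. In the untreated Wapl-degron, single-Igh and parental lines the first 100 kb held 21.2%, 21.3% and 11.2%. The untreated lines were also weighted to the far stretch, with 81.6% ± 1.78 in the parental line, 68.3% ± 9.33 in Wapl-degron and 71.1% ± 8.26 in single-Igh cells. In INV BM the far stretch held 42.6% ± 2.88, 1.36 points from WT BM (p = 0.514, adjusted p = 0.689, exact permutation).

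**Figure D3:**
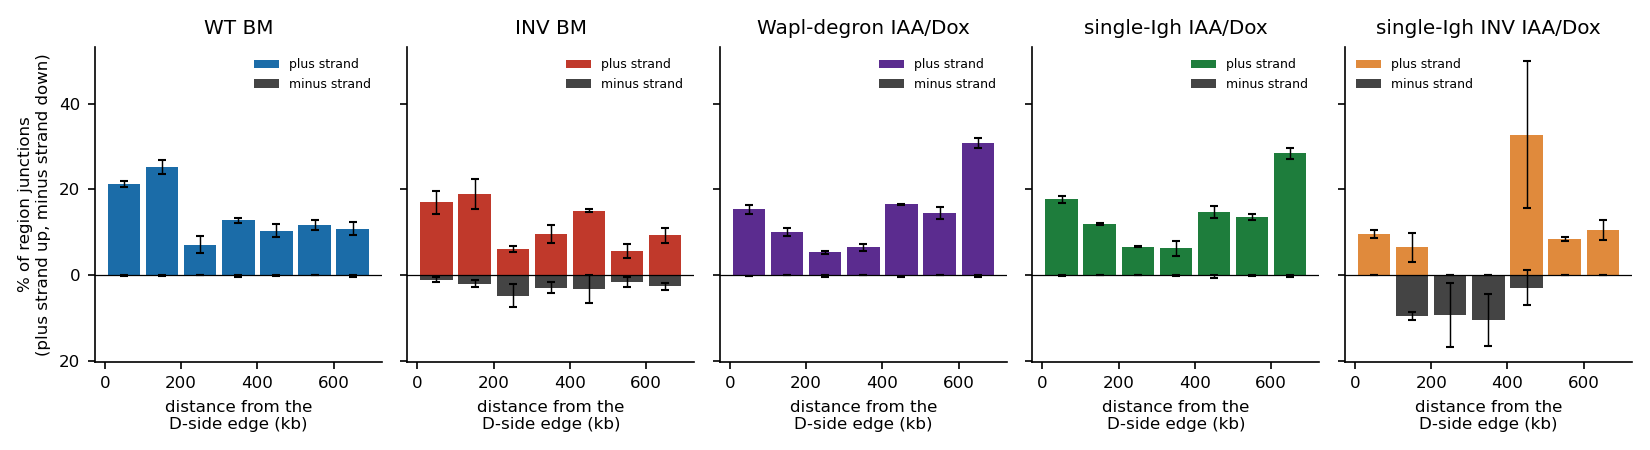
Percent of region junctions in 100 kb bins from the D-side edge, plus strand upward and minus strand downward, as mean and SD over samples (2 samples with region junctions in single-Igh INV). WT BM is highest in the first 2 bins (21.3% and 25.3%), the treated lines in the last bin (30.8% and 28.4%), and only the 2 inverted groups show bars below 0 that reach 2% or more.

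The annotated genes of the region were used unevenly, counted here by their plus-strand joints. Of the 31 genes, 30 had plus-strand junctions in WT BM, 28 in INV BM and 30 in each treated degron line. The untreated parental, Wapl-degron and single-Igh lines had 18, 21 and 22 such genes, and single-Igh INV had 6. Only minus-strand junctions were found at Ighv1-14 (2) and Ighv8-5 (3) in INV BM and at Ighv1-42 (8) in single-Igh INV. Ighv1-24 had none in any group. With the left-out stretches not counted, WT BM used Ighv1-18 most, with 10.5% of region junctions. Next came Ighv1-19 with 8.58%, Ighv1-9 with 7.32% and Ighv15-2 with 7.19%. These 4 lie 2.79 to 147 kb from the D-side edge. These top 4 held 33.6%. In the parental line Ighv1-47 alone held 35.4% and Ighv1-54 held 18.9%, and the top 4 genes held 66.3%. Both also led with IAA/Dox, where Ighv1-54 held 14.9%, Ighv1-47 12.3%, Ighv1-52 8.74% and Ighv1-12 7.12% in the Wapl-degron line. In the single-Igh line these 4 genes held 8.60% (Ighv1-12) to 12.01% (Ighv1-54), and Ighv1-47 was above Ighv1-54 in replicates 1 and 3.

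Across the 31 genes the percent of region junctions correlated at r = 0.971 between the 2 treated lines, at 0.913 and 0.894 between each line with and without IAA/Dox, and at 0.266 and 0.293 between WT BM and the treated lines. WT BM and INV BM had r = 0.645. Each r describes genes of one locus that share sequence and libraries, so it is a description only. Pseudogenes held 1.49% of region junctions in WT BM, 4.54% in INV BM, 1.92% in the treated Wapl-degron line and 1.46% in the treated single-Igh line. The family 8 genes Ighv8-5 and Ighv8-6 together held 0.888% in WT BM and 3.49% in the treated Wapl-degron line.

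**Figure D4:**
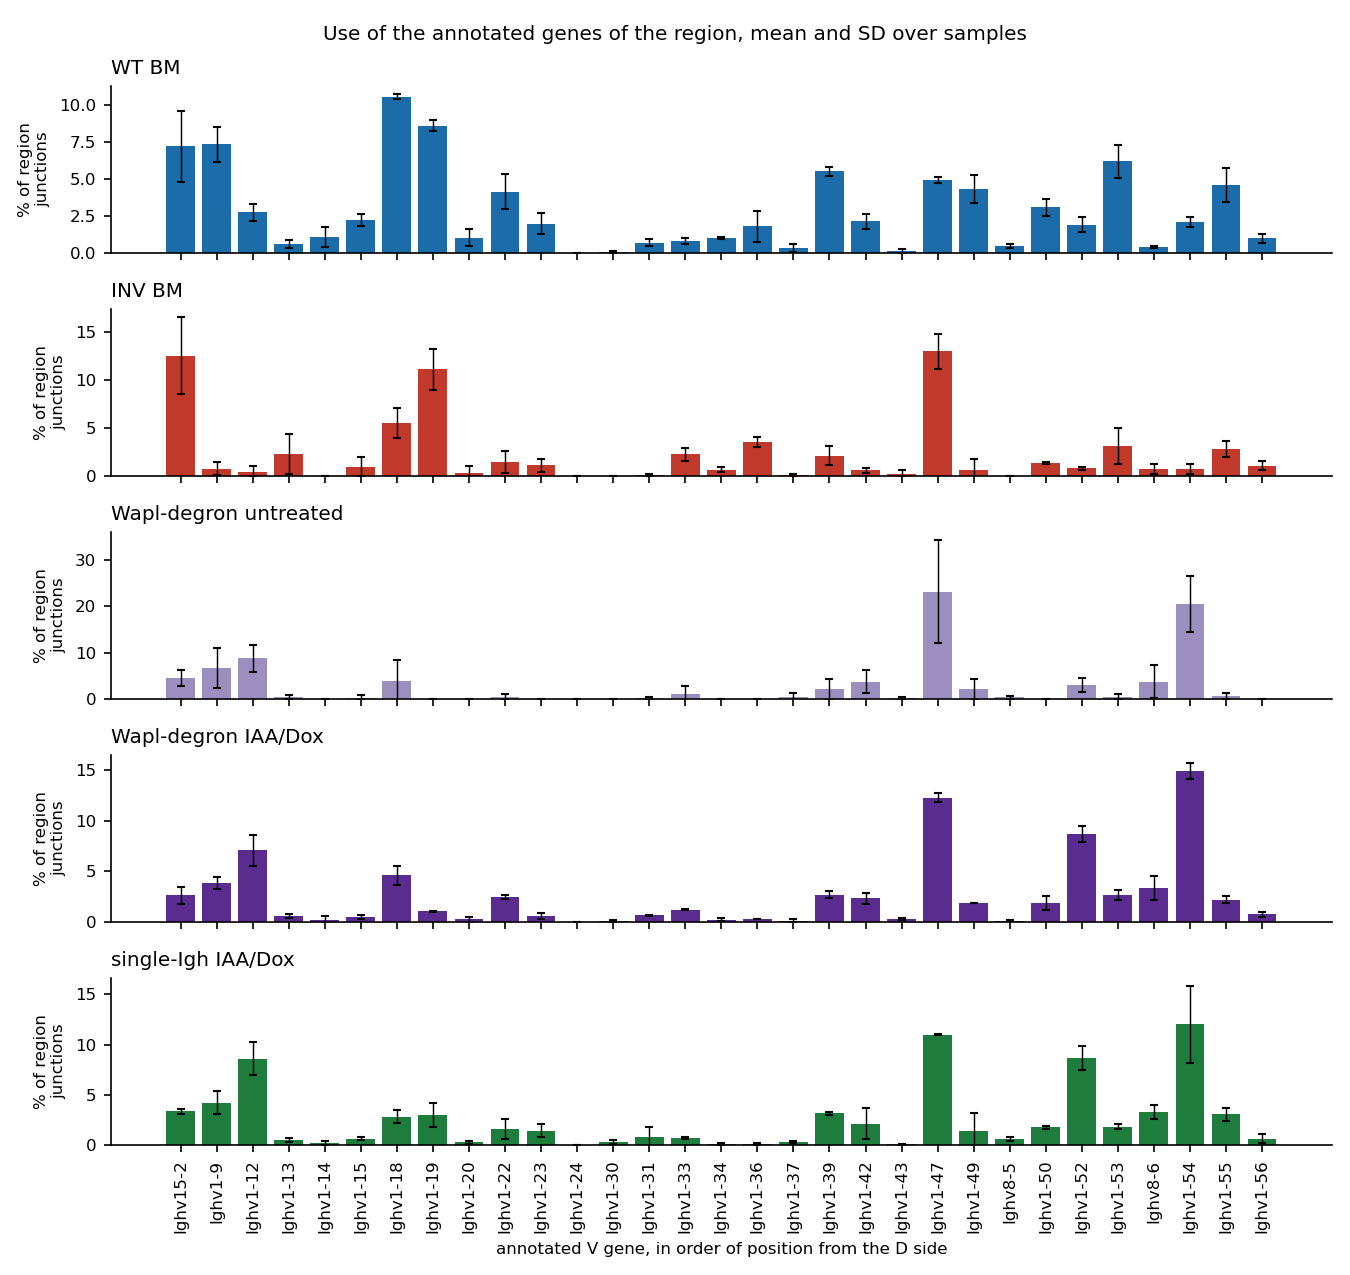
Percent of region junctions at each of the 31 annotated genes, plus-strand joints only, in order from the D side. Bars are means and error bars SD over samples in 5 groups, each panel with its own scale. WT BM is spread over the near genes Ighv1-18 (10.5%) and Ighv1-19 (8.58%), whereas Ighv1-47 and Ighv1-54 lead the untreated Wapl-degron line (23.2% and 20.5%) and stay on top with IAA/Dox (12.3% and 14.9%).

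Each segment was then tested in marrow, with limma voom and Benjamini-Hochberg adjustment over all VH segments and with D plus VH junctions as the library size. Of the 91 region segments tested, 53 were lower and 2 higher in INV BM at an adjusted p under 0.05, where over all 340 VH segments 49.7% were lower and 5% higher. Of the 48 segments with at least 10 junctions in INV BM itself, 28 were lower and 2 higher. Of the 70 with at least 10 junctions in WT BM, 53 were lower and 0 higher. All 30 tested plus-strand gene segments were lower, with a median log2 change of -6.50. The matching shares over all VH segments chosen in these ways were not counted, so these counts do not set the region apart. The median of all 91 was -4.06, against -3.15 over all VH segments. When the library size was VH junctions, which moved the median over all VH segments to -0.80, the split was 38 lower and 11 higher.

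Ighv1-9 showed one of the deepest losses among the much-used genes. It took 0.836%, 0.603% and 0.615% of D plus VH junctions in the WT BM libraries and 0.00455%, 0.000319%, 0.00261% and 0.000405% in INV BM. These groups were more than an order of magnitude apart, and the log2 change was -9.13 (SE 0.770, limma adjusted p = 1.19e-08). Ighv1-49 fell by 10.3 on the log2 scale (SE 0.987, limma adjusted p = 4.10e-08), from 0.355%, 0.473% and 0.365% to 0, 0, 0.00484% and 0.000203%, so that INV BM replicate 3 held 13 of its 14 junctions. Ighv1-14, whose signal has 1 heptamer mismatch, took 0.0388%, 0.156% and 0.106% in WT BM. It had no plus-strand junction in any INV BM library, at least 129-fold lower against 3 counts per library, and 2 minus-strand ones.

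Other genes kept more of their joints. Ighv1-47 took 0.470%, 0.455% and 0.458% in WT BM and 0.0354%, 0.0366%, 0.0235% and 0.0257% in INV BM, a log2 change of -3.92 (SE 0.293, limma adjusted p = 3.75e-09). Ighv15-2, the gene at the D-side edge, took 0.476%, 0.608% and 0.930% against 0.0510%, 0.0376%, 0.0197% and 0.0160%, a log2 change of -4.22 (SE 0.428). Every INV BM library lay below every WT BM library at both genes. Ighv1-19 and Ighv1-18, whose signals differed by 1 of 46 letters, changed by -4.96 and -6.26. A link between signal letters and use was not tested. Within the region, Ighv1-47 (13.0%), Ighv15-2 (12.5%) and Ighv1-19 (11.1%) thereby led INV BM, and the top 4 genes held 42.1%. These 6 genes and Ighv1-14 also stayed lower when scaled by VH junctions (log2 changes from -8.19 at Ighv1-49 to -1.69 at Ighv1-47, limma).

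In inverted cells a larger part of the region's junctions lay on the minus strand. On the reference, a coding joint made at a VH gene's own signal reads on the plus strand whether or not the allele is inverted. A minus-strand joint reads either from a site that faces the other way or from the signal end of a gene's own signal, the first heptamer base. Of the minus-strand region junctions, 302 of 373 in WT BM lay exactly at the signal end of a plus-strand site, against 28 of 748 in INV BM and 0 of 25 in single-Igh INV. In the treated Wapl-degron and single-Igh lines 14 of 37 and 7 of 32 did. These counts are a description and were not tested. The plus strand held 99.6%, 99.3% and 98.999% of region junctions in WT BM and 86.6%, 84.4%, 81.9% and 73.1% in INV BM, a difference of -17.8 points with no overlap (p = 0.0571, adjusted p = 0.245, exact permutation). Minus-strand counts were 163, 95 and 115 of 378840, 165882 and 120067 D plus VH junctions in WT BM. In INV BM they were 286, 122, 103 and 237 of 703241, 313786, 268652 and 493749. By that denominator the mean minus-strand share was not higher in INV BM, and the groups overlapped. The single-Igh INV line had 55.9% and 79.6% in the 2 libraries with region junctions, against 99.2% ± 0.134 in single-Igh IAA/Dox. Over marrow and line the difference was -24.6 points (p = 0.00952, adjusted p = 0.143, exact permutation). In INV BM the minus-strand share was larger in the distal block (38.3% ± 2.92) than in the region (18.5% ± 5.93), and 1.47% ± 0.0859 nearer to D. Nearer to D Ighv5-2 alone held 78564 of 82310 junctions in replicate 1, so this value need not hold for the other genes there.

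The minus-strand joints were scattered. INV BM had 748 of them at 91 segments, 79 of these without an annotated gene, and WT BM had 373 at 24 segments, 8 without one. They were most frequent between 200 and 300 kb from the D-side edge (4.80% ± 2.73 of region junctions in INV BM). Of 31 minus-strand segments tested, 2 were higher and 2 lower in INV BM. The 2 higher ones were the near-copies site116045359 and site116150542. The first had 10, 5, 16 and 11 junctions in the INV BM libraries and the second 34, 10, 2 and 9, with none in WT BM. Against 3 counts per WT library, site116045359 was at least 1.65-fold higher (limma adjusted p = 0.0277) and site116150542 at least 1.56-fold (limma adjusted p = 0.0292). Both sites reached the minimum of 10 junctions through INV BM alone, so a higher value there is built in and these calls are a description only. Neither call held without WT BM replicate 1 (adjusted p = 0.139 for both), without INV BM replicate 2 (0.0519 and 0.0799), or, for the one site, without INV BM replicate 3 (0.0679) and, for the other, without INV BM replicate 1 (0.0766).

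The most used minus-strand segment of INV BM lay at Ighv1-47. It had 18, 11, 3 and 59 junctions in INV BM and 1, 0 and 2 in WT BM, a log2 change of 2.63 that missed the threshold (SE 1.21, limma adjusted p = 0.0729), passed it when VH junctions were the library size (log2 4.87, adjusted p = 0.00127) and turned to -0.75 when segments were joined over gaps of 5 bp (adjusted p = 0.696). Its INV BM joints did not fall at the CACAGTA shown above: 3 lay 1 base from it, 27 lay 8 bases from it, 8 were at the signal end of the gene's own signal, and the others lay 30 to 43 bases away. The 3 WT BM joints were at that signal end. In single-Igh INV the minus strand held 25 junctions at 4 segments. Of the 2 near-copies, site116045359 had 5 and 2 of them in replicates 2 and 3, and Ighv1-42 had 5 and 3, all exactly at its CACAGTA. Ighv1-42 also had 1, 2 and 1 minus-strand joints in single-Igh IAA/Dox and 14 at its signal end in WT BM. site115920842, just beyond Ighv1-18, had 3 and 5 in single-Igh INV, 5, 0, 3 and 0 in INV BM, and 43, 0 and 7 in WT BM. Those of WT BM were all at the signal end of Ighv1-18, and those of INV BM lay 3 and 1 bases from the nearest CACAGTA. The 8 of single-Igh INV lay 7 bases from the nearest CACAGTA. Junctions at annotated genes, on either strand, made up 89.0% ± 3.20 of region junctions in WT BM, 73.3% ± 3.80 in INV BM (p = 0.0571, adjusted p = 0.245, exact permutation) and 54.6% ± 6.49 in single-Igh INV.

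In the degron lines region segments rose after IAA/Dox treatment. A segment was tested if it had 10 junctions over both groups, and most reached that through the treated group, where a rise is then built in. Of the segments that also had 10 junctions untreated, 11 of 11 were higher in each line. The share among all VH segments with 10 junctions untreated was not counted, so this does not set the region apart. In Wapl-degron cells 34 of 34 were higher, where 89.1% of all 138 VH segments were higher and 4.35% lower. The median log2 change was 5.24, against 5.00 over all VH segments. In the single-Igh line 40 of 40 were higher, where 89% of 145 were higher and 3.45% lower, with medians of 4.98 and 4.78. With the sequencing run as a block and libraries counted separately, 19 of the 40 passed, while the median over all VH segments was 4.96. Scaling by VH junctions, which moved the medians over all VH segments to 2.71 and 2.83, left 33 of 34 and 31 of 40 higher.

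Ighv1-54, near the far edge, was the most used gene in each treated Wapl-degron library. It took 0.00613%, 0.00671% and 0.00329% of D plus VH junctions in the untreated Wapl-degron line and 0.124%, 0.128% and 0.174% with IAA/Dox, without overlap. The log2 change was 4.80 (SE 0.383, limma adjusted p = 2.01e-29). Its share in the single-Igh line was 0.00604%, 0.00530% and 0.00540% untreated and 0.102%, 0.152% and 0.0897% treated, a log2 change of 4.44 (SE 0.378, limma adjusted p = 2.45e-12). There its lead over Ighv1-47 rested on replicate 2. Ighv1-47 went from 0.00306%, 0.00695% and 0.00746% to 0.0836%, 0.123% and 0.145% in the Wapl-degron line, a log2 change of 4.20 (SE 0.382). The single-Igh line went from 0.0110%, 0.00874% and 0.00782% to 0.119%, 0.113% and 0.108%, a change of 3.68 (SE 0.320). Ighv1-52 rose by 6.72 in the Wapl-degron and 5.31 in the single-Igh line, and Ighv1-12 by 4.86 and 4.78. The limma p-values share 1 estimate of spread over segments and do not measure the spread of 1 gene between libraries.

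Genes with few or no untreated junctions entered the test through the treated group, so their large folds follow from how they entered and are a description only. In the Wapl-degron line Ighv1-50 had no junction untreated and 11, 23 and 30 with IAA/Dox, at least 29.4-fold higher against 3 counts per library. Its twin in sequence, Ighv1-53, had 0, 0 and 2 untreated and 27, 42 and 29 treated (log2 7.30, SE 0.727, limma adjusted p = 1.42e-20). Ighv1-22 had 0, 0 and 2 and then 17, 49 and 29 (log2 7.25, SE 0.728). In the single-Igh line Ighv1-23 had none untreated and 19, 19 and 18 treated, at least 21.1-fold higher, and Ighv1-22 had 2, 0 and 0 and then 8, 45 and 9 (log2 6.54, SE 0.957). With the run as a block, Ighv1-22 and Ighv1-23 did not pass in the single-Igh line (log2 7.86 and 7.50, limma adjusted p = 0.138 and 0.156). site116019620, an unannotated plus-strand site with an exact CACAGTG, went from 2, 1 and 0 junctions to 15, 61 and 15 (log2 6.70, SE 0.808, limma adjusted p = 4.11e-09).

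Unannotated plus-strand sites also received joints. They held 62 of 465 plus-strand region junctions in the untreated and 655 of 3646 in the treated Wapl-degron line. In the single-Igh line they held 74 of 525 untreated and 803 of 3853 treated. The counts were 5804 of 62231 in WT BM and 493 of 3622 in INV BM. The leading one in both treated lines was site116496342, close to the far edge, whose nearest heptamer is CACATTG, 1 mismatch from the consensus. It took 0.0622%, 0.0786% and 0.115% of D plus VH junctions in the treated Wapl-degron line against 0.00175%, 0.00118% and 0.00152% untreated (log2 5.79, SE 0.574, limma adjusted p = 1.05e-20). In WT BM it took 0.194%, 0.191% and 0.399%. It was thus a used site in marrow and lines alike.

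No region segment passed the threshold between the untreated Wapl-degron and parental lines. Ighv1-18 had 11 plus-strand junctions in the untreated Wapl-degron line and 0 in the parental line. Of 13 region segments tested none passed, with 0% of all 73 VH segments called higher and 0% lower, and none of the 13 had an unadjusted limma p under 0.05. Ighv1-54 took 0.00744%, 0.00366% and 0.00470% in the parental line, overlapping the untreated Wapl-degron values (log2 0.10, SE 0.486, limma adjusted p = 0.904). Ighv1-47 took 0.0153%, 0.00700% and 0.00795% there (log2 -0.47, SE 0.450, limma adjusted p = 0.899). site116297387 had 12, 0 and 1 junctions in the parental line and none in the Wapl-degron line, so that parental replicate 1 set its place among the 4 most used segments of that line. The far stretch, however, took 57.6%, 74.8% and 72.4% of region junctions in the untreated Wapl-degron libraries and 83.1%, 79.6% and 82.0% in the parental ones. The groups did not overlap (-13.3 points, p = 0.1, the smallest that 3 against 3 allow, adjusted p = 0.387, exact permutation), and parental replicate 1 rests on 19 distinct junctions. All untreated Wapl-degron libraries came from run 7 and the parental ones from runs 2 and 8. Line and sequencing run cannot be told apart here.

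With the inverted single-Igh allele most region segments were lower. Of 40 region segments 36 were lower in single-Igh INV than in single-Igh IAA/Dox and none higher, where 87.8% of all 148 VH segments were lower and 3.38% higher. All but 1 of the 40 reached the minimum in single-Igh IAA/Dox and 1 in single-Igh INV, so the filter favoured segments that are high in single-Igh IAA/Dox. The median log2 change was -4.68, against -5.09 over all VH segments. Scaled by VH junctions, which moved the median over all VH segments to -1.61, 8 were lower. Without replicate 3 of single-Igh INV 23 were lower. Ighv1-12, with 87, 145 and 102 junctions in single-Igh IAA/Dox, had none in single-Igh INV, at least 35.3-fold lower. Ighv1-54 had 90, 287 and 90 against 0, 0 and 2 (log2 -7.70, SE 0.834, limma adjusted p = 2.36e-17), and Ighv1-52 had 101, 152 and 82 against 0, 1 and 0 (log2 -8.02, SE 0.917).

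Ighv1-47 was the most used gene of single-Igh INV, with 0, 7 and 18 junctions, or 28.7% of region junctions. It fell by 5.14 on the log2 scale (SE 0.628, limma adjusted p = 3.28e-14), and by 1.49 with an adjusted p of 0.105 when scaled by VH junctions. Ighv15-2 had 0, 3 and 5 junctions (log2 -4.48, SE 0.756, limma adjusted p = 1.76e-08). It was at -1.14 with an adjusted p of 0.396 when scaled by VH junctions. Ighv1-47 and Ighv15-2 thus led both inverted groups among plus-strand genes. Ighv1-47 was also the most used gene of the untreated parental, Wapl-degron and single-Igh lines, so its lead is not particular to inverted cells.

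Set against WT BM, the treated Wapl-degron line was lower at a share of region segments close to that over all VH. The groups differ in cell source, genotype and treatment at once. Of 75 region segments 34 were lower than in WT BM and none higher, where 47% of all 249 VH segments were lower and 0% higher. Of the 34 segments with at least 10 junctions in the treated line itself, 26 were lower, and the matching share over all VH segments was not counted. The median log2 change was -2.10, against -2.30 over all VH segments. Scaled by VH junctions, which moved the median over all VH segments to 1.15, 10 were higher and 1 lower. Without replicate 3 of the treated Wapl-degron line 20 were lower, and scaled by all junctions 1 was. In WT BM replicates 2 and 3, 64.8% and 87.4% of all junctions lay within the JH segments, against 5.06% in replicate 1 and 7.29% to 10.9% in the treated Wapl-degron line, and the part of this difference in the last count was not tested.

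Ighv1-54 took 0.124%, 0.128% and 0.174% of D plus VH junctions in the treated line and 0.239%, 0.160% and 0.186% in WT BM, and the groups overlapped (log2 -0.50, SE 0.370, limma adjusted p = 0.289). Ighv1-52 was lower by 1.19 (SE 0.418, limma adjusted p = 0.0101), a call lost without WT BM replicate 1 (adjusted p = 0.0725). Ighv1-47 and Ighv1-12 were lower by log2 changes of -1.94 (SE 0.357) and -2.10 (SE 0.432). The most used genes of WT BM were lower too. Ighv1-19 took 0.00389%, 0.0142% and 0.0124% in the treated line and 0.868%, 0.737% and 0.801% in WT BM, a log2 change of -6.14 (SE 0.860, limma adjusted p = 1.84e-11). Ighv1-14 had 0, 0 and 6 junctions against 147, 259 and 127 (log2 -6.45, SE 1.57), and Ighv1-15 had 5, 1 and 8 against 943, 331 and 208 (log2 -5.91, SE 1.23). Ighv1-9, Ighv1-18 and Ighv15-2 were at -4.23, -4.46 and -4.63. Scaled by VH junctions, Ighv1-54, Ighv1-52 and Ighv1-47 turned to 2.98, 2.30 and 1.56. With the same scaling Ighv1-19 stayed lower at -2.63 (limma adjusted p = 0.0335), whereas Ighv1-9, Ighv1-18, Ighv15-2, Ighv1-14 and Ighv1-15 lost the threshold (-0.70, -0.93, -1.08, -2.84 and -2.38, limma adjusted p = 0.396, 0.148, 0.328, 0.387 and 0.237). Ighv1-9 and Ighv1-54, whose signals differ by 1 letter, held different ranks in the 2 kinds of cells, and a link between signal letters and use was not tested.

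**Figure D5:**
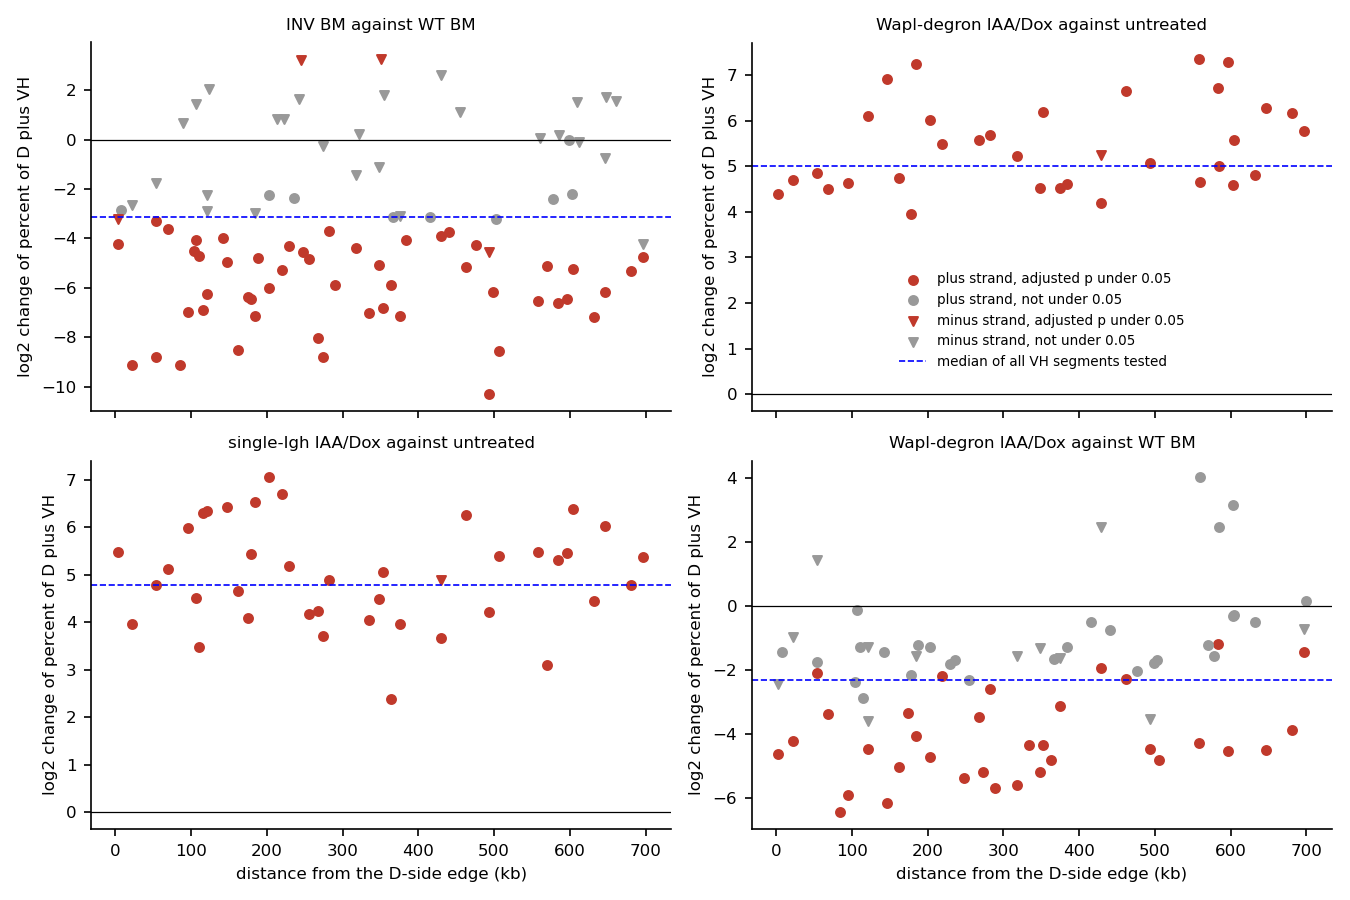
Log2 change of each tested region segment's share of D plus VH junctions by distance from the D-side edge, in 4 comparisons; circles are plus-strand and triangles minus-strand segments, red has a limma adjusted p under 0.05, and the dashed line is the median of all VH segments tested. Of the region segments 34 of 34 and 40 of 40 are higher with IAA/Dox (89.1% and 89% of all VH segments; 11 segments in each line had 10 junctions untreated), 53 are lower (49.7% of all VH segments) and 2 minus-strand segments higher (5%) in INV BM, and against WT BM 34 are lower (47%) in the treated Wapl-degron line and none higher. The 2 minus-strand segments reached the minimum through INV BM alone.

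The joints themselves also differed between marrow and lines. The sequence between the bait and prey alignments, which holds the D segment and any added bases where a D is present, had a median of 18 bases at plus-strand region junctions in WT BM and in INV BM. It was 15.5 bases in the parental line, 16 and 15 in the untreated Wapl-degron and single-Igh lines, and 12 and 11 with IAA/Dox, but 16 in single-Igh INV with IAA/Dox (58 junctions). Minus-strand junctions had a median of 18 bases in INV BM, as on the plus strand, and of 3 and 0 in the treated Wapl-degron and single-Igh lines, from 37 and 32 junctions. These medians were not tested.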

How the data were processed

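LAM-HTGTS junction lists of 25 JH-bait libraries of mouse pro-B cells were read. Each deposited list gives a junction in each line, with the chromosome, position, strand, alignment ends and read name of the prey and bait as plain positions and names, per the file headers. The file headers also name filters on mapping quality and duplicates, whose settings are not given in the sources used here. Reads were aligned to mm9, and Bowtie2 is named, per the submitters' processing notes. No normalization was applied by the authors, and the counts of junctions used here were made here from the deposited lines. In Wapl-degron IAA/Dox replicate 2, 28.4% of the 226216 lines repeated a read name (1614 region lines from 1113 names), against at most 0.192% in the other libraries, and counting each read name once was an alternative. The lists carry no molecular identifiers, and related VH genes can lose or exchange reads in mapping.

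Positions at most 20 bp apart on 1 strand formed a segment, which took the name of a gene annotated within 20 bp of it. VH spans chr12:114812453-117238672 (112 genes) and D chr12:114668739-114766265 (21 genes). A pair of libraries was counted as 1 sample where a chi-square test over VH segments found no difference at 0.05 for that pair alone in its group. In single-Igh INV replicate 1 did not differ from replicate 2 or 3 (chi-square p = 0.132 and 0.192), so none was joined. As an alternative, all pairs with over 5% of the smaller library's distinct region junctions identical were joined. The JH-bait list of WT BM replicate 4 that selects off-target junctions, pooled lists, Igk-bait lists and splenic samples were not used here.

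For shares, 6 kinds of them, the test was an exact permutation test, two-sided (scipy 1.17.1), with p-values adjusted by Benjamini-Hochberg over 60 such tests. For each comparison limma 3.58.1 (voom, lmFit, eBayes; R 4.3.3) was fitted to the VH segments that reached 10 junctions in its groups, and calls have an adjusted p under 0.05. The fit was tested on simulated data with 8-fold changes. Where a group had no junction, folds are bounds from 3 counts per library, and the Wilson method gave 95% intervals. Python 3.11.15, numpy 2.4.6, pandas 2.3.3 and matplotlib 3.10.9 were used.

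Segments named in the text are the 4 most used of each group, the 3 with the largest change in each direction past the threshold without overlap between groups, and the 3 most used minus-strand segments of each inverted group. Signal letters were searched with heptamer and nonamer allowing the mismatches given. The members and lists were chosen with earlier results of these data known. Same-numbered libraries deviated together in every pair (correlation over 0.1) for the untreated Wapl-degron and parental lines (0.230, 0.340 and 0.133). This cut was set here, and whether the numbers pair the samples was not settled. Sequencing runs, 8 in number, were told apart by read names.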

Additional observations from a re-analysis of the deposited data

Results flagged for a closer look

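Ighv1-49 in INV BM had 1 library far from the others. Its share of D plus VH junctions was 0, 0, 0.00484% and 0.000203%, so the gap between INV BM replicate 3 and the nearest library was 0.958 of the whole range (0.9581), above Dixon's critical value for 4 libraries. The 13 junctions of replicate 3 lay below the lowest WT BM share of 0.355%. Among 29 sets of this kind tested, chance would set apart about 1 in 20.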

How the results depend on the processing

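Alternatives chosen after seeing the data are the separate counting of libraries, the wider joining of libraries that share junctions, the replicate block and run block with libraries counted separately, and distinct junctions with Ighv5-2 left out. Apart from leaving out replicates, 415 share values kept their direction and side of the threshold, 16 reversed and 7 became stronger. Of the segment counts 61 stayed within 1.5 times of the reported count and 9 moved. Of the values of named segments 532 kept direction and side, 18 lost the threshold, 2 gained it and 9 reversed. Counting each read name once changed none of the 60 share results in direction or call. The causes were not tested.

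With libraries counted separately, adjusted p became 0.0490 for the IAA/Dox effect on the VH share (18.2 points), the D plus VH share (0.958) and the region's part of region plus distal joints (-25.6), and for the inversion effect on the VH share (-17.5), the D plus VH share (-5.06), the plus-strand share (-24.6) and the annotated-gene share (-20.2). Distinct junctions counted once turned the untreated Wapl-degron against parental difference in the D plus VH share to 0.0159 (0.0162 without Ighv5-2) and the difference between lines in the plus-strand effect to 0.0718. Keeping the left-out stretches turned the plus-strand effect of IAA/Dox to 0.159 in the single-Igh line and 0.00219 over both lines, and in the Wapl-degron line the far-stretch effect to 5.13 and the annotated-gene effect to 3.03. With all junctions as denominator, 4 differences in the VH share reversed: -0.00256 for untreated Wapl-degron against parental, -3.49 for treated Wapl-degron against WT BM, -0.0861 between the lines and -3.19 between marrow and line. Within single runs the plus-strand effect was 0.418 in the single-Igh line (run 8), and far-stretch differences were -2.74 for INV BM (run 1), 1.69 for the Wapl-degron line (run 7), 0.0641 for the single-Igh line (run 8) and -6.45 for single-Igh INV (run 6).

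For treated Wapl-degron, segment counts moved to 76 with at least 1 junction and to 12 with at least 100. For treated single-Igh they moved to 12 with at least 100 and to 19 with the run block. For single-Igh INV they moved to 12 with at least 100 and to 8 scaled by VH junctions. Against WT BM they moved to 11 scaled by VH junctions, 1 scaled by all junctions and 20 with all sharing libraries joined. Among named segments, minus-strand Ighv1-47 in INV BM was -0.75 with gaps of 5 bp, and minus-strand Ighv1-42 in single-Igh INV was -0.13 with limma trend. Against WT BM, scaling by VH junctions gave Ighv1-47 1.56, Ighv1-52 2.30, Ighv1-54 2.98 and site116496342 2.10, scaling by all junctions gave Ighv1-52 0.43 and Ighv1-54 1.03, and distinct junctions gave Ighv1-54 0.28.

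Leaving out 1 replicate at a time changed 21 share values in sign. Untreated Wapl-degron against parental ranged from -0.0570 to 0.518 in the VH share, -0.00659 to 0.00281 in the D plus VH share, -0.486 to 0.203 in the plus-strand share, and -0.23 to 0.52 at Ighv1-54. The far-stretch share ranged from -5.72 to 2.87 for treated Wapl-degron, -4.16 to 8.45 for single-Igh INV, -1.40 to 4.91 for the inversion effect and -7.08 to 5.52 for its difference between marrow and line. The plus-strand effect ranged from -0.523 to 0.0412 in the single-Igh line. Differences between lines in the IAA/Dox effect ranged from -0.207 to 0.01005 (D plus VH share), -0.500 to 0.188 (plus strand), -1.63 to 3.43 (annotated genes) and -4.63 to 2.41 (region plus distal). Segment counts ranged from 20 to 38 against WT BM and 23 to 35 for single-Igh INV. The minus-strand changes in INV BM ranged from 2.02 to 3.41 at Ighv1-47, 2.72 to 3.55 at site116045359 and 2.82 to 3.68 at site116150542.

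With the replicate block, the segment counts were 56, 34, 40, 39, 0 and 42 for INV BM, treated Wapl-degron, treated single-Igh, single-Igh INV, untreated Wapl-degron and treated Wapl-degron against WT BM, and the VH share differences were -16.2, 18.6, 17.9, -18.7, 0.225 and 2.76 points. The block changed no call of untreated Wapl-degron against parental, the 1 comparison where every same-numbered pair deviated together. A run block could not be fitted for treated Wapl-degron against WT BM, which share no run. The same holds for untreated Wapl-degron against parental. Low junction counts in the untreated and inverted lines limit what single genes can show.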
